A study of Mus musculus with 4 samples.

Results

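The 6 windows described here hold the mouse antigen receptor genes: the immunoglobulin heavy chain (Igh), kappa light chain (Igk) and lambda light chain (Igl) genes and the T cell receptor alpha and delta (Tcra/Tcrd), beta (Tcrb) and gamma (Tcrg) genes. They were chosen by position on mm9, in whole megabases, and stand beside 2388 autosomal bins of 1 Mb in the fit below. From first to last probe they span chr12:114000856-116932331 for Igh, chr6:67007149-70996996 for Igk, chr16:19021327-19991978 for Igl, chr14:53008326-54997382 for Tcra/Tcrd, chr6:40012375-41991724 for Tcrb and chr13:19004921-19955771 for Tcrg. Together they held 820 of the 170305 probes on the array: 199 for Igh, 202 for Igk, 70 for Igl, 99 for Tcra/Tcrd, 170 for Tcrb and 80 for Tcrg. Array comparative genomic hybridisation compared genomic DNA of liver tumours from 4 untreated male Trp53-/- mice, 1 tumour per mouse, with a spleen DNA pool of 3 littermates of the same sex. The mice were C57BL/6J with Trp53, the p53 tumour suppressor gene, lost specifically in the liver per the series' title; the driver of that loss is not given in the sources used here, and the reference channel is labelled Trp53-/- as well. The design and the channel labels name spleen as the reference tissue, while the labelling protocol calls it liver. Tumour DNA was labelled with Cy5 and reference DNA with Cy3, so a positive log2 ratio means more tumour than reference signal.

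Antigen receptor genes are assembled in developing lymphocytes from separate variable (V), diversity (D) and joining (J) segments, and the DNA between the joined segments is usually cut out or, at some segments, inverted. Other cells, such as those of the liver, keep the segments in their inherited order. Heavy chain genes are rearranged in B cells, which then rearrange a light chain gene, and T cells rearrange their own receptor genes. At the heavy chain locus a further recombination, class switching, can remove constant genes. Spleen is rich in both B and T cells. This is textbook background and was not measured here.

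The gene order of each locus was taken from RefSeq on GRCm38.p6, for names and order only. RefSeq lists 8 constant, 4 J, 20 D and 183 V segments for Igh, 1 constant, 5 J and 162 V segments for Igk, and 4 constant, 5 J and 3 V segments for Igl. For Tcra/Tcrd it lists 2 constant, 62 J, 2 D and 136 V segments, for Tcrb 2 constant, 14 J, 2 D and 35 V segments, and for Tcrg 4 constant, 4 J and 7 V segments. The Igh constant genes lie at the low-coordinate end of the cluster, next to 4930427A07Rik (now Tedc1), followed by J, D and V segments up to Zfp386. The Igk and Tcra/Tcrd constant genes lie at the high-coordinate end, next to Rpia and Dad1. Probe names inside the clusters are mostly transcript accessions, 24 of the 27 names looked up, and none of the 24 matched a RefSeq entry. No annotation of mm9 was used, so single probes could not be assigned to a constant, J, D or V segment or to an exon or intron, and positions stand in for segments.

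The probes below were picked by rank or position, so they do not compare the loci. They are the Igh probes on either side of a step in the ratio, the Igh probe with the highest mean, and the probes nearest to the ends of the Igh window. The highest probe of each other window is also given.
Igh last probe before the step: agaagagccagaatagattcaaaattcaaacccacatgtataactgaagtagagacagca
Igh first probe after the step: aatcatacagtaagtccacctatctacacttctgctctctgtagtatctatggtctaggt
Igh highest probe: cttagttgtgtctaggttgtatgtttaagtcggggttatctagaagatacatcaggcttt
Igh probe nearest the window start: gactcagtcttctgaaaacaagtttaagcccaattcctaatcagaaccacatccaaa
Igh probe nearest the window end: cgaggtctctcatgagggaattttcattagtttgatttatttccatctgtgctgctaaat
Igk highest probe: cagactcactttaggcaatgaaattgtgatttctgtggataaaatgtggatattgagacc
Igl highest probe: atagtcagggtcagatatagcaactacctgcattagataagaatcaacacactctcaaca
Tcra/Tcrd highest probe: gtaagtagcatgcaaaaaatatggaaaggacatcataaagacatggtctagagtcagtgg
Tcrb highest probe: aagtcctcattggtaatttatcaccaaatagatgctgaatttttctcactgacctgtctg
Tcrg highest probe: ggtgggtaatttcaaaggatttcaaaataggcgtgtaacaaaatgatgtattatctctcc
The Igh probes lie at chr12:114664510-114664569 (last before the step), chr12:114670169-114670228 (first after it), chr12:114676626-114676685 (highest), chr12:114000856-114000912 (window start, in the array's Pld4) and chr12:116932272-116932331 (window end), all on mm9. The others lie at chr6:67444505-67444564 (Igk), chr16:19897478-19897537 (Igl), chr14:54720372-54720431 (Tcra/Tcrd), chr6:40360452-40360511 (Tcrb, in the array's E330009J07Rik) and chr13:19067865-19067924 (Tcrg, in the array's Amph). The letters are printed as on the array, whose files do not give the strand. The last probe before the step was also the Igh probe with the lowest mean. On the relative log2 scale defined below, the first Igh probe after the step had a mean of 0.37 and the highest Igh probe 1.00. The highest probes of the other windows had means of 0.43 (Igk), 0.47 (Igl), 0.41 (Tcra/Tcrd), 0.42 (Tcrb) and 0.42 (Tcrg). The recombination heptamer, CACAGTG or its reverse complement CACTGTG, would be in capitals, and none of the printed probes holds it. It was found in 2 Igh probes, 2 Igk probes and none of the other windows' probes, which is 0.488% of the 820 probes against 0.837% of the 161460 autosomal probes.

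Values below are log2 tumour over reference ratios minus the mean of the same chromosome outside the windows, so that a gain or loss of the whole chromosome does not count, and they are called relative log2 ratios. All probes of the 6 windows were well above background in both channels of all arrays, and none was saturated. The 4 tumours were 1 group, each was hybridised once, and precision is limited by having 4 arrays. Tumours 1 and 4 shared a slide. Noise between neighbouring probes was lower in tumours 3 and 4 (spread metric 0.159 and 0.164) than in tumours 1 and 2 (0.255 and 0.309), and the scanner software flagged the metric of tumour 2 as out of range. The same reference design was used on every array, so a difference common to all 4 ratios cannot be told apart as one of the tumours or one of the spleen pool. In DNA from mixed cells, a change in all cells and a larger change in some of them also cannot be told apart.

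Igh was higher in tumour than in reference DNA, relative to the rest of chromosome 12, in all 4 tumours. Its 199 probes had mean relative log2 ratios of 0.27 ± 0.02, 0.27 ± 0.02, 0.24 ± 0.02 and 0.20 ± 0.02 in tumours 1 to 4 (errors are SE over probes). Tumour 4 was the lowest. Probes of 1 array are not independent replicates, so these errors do not measure the error of an array or the spread between tumours. The mean was 0.24 ± 0.03 (SD, n = 4), a ratio of 1.18-fold, and limma gave an adjusted p of 0.0080 (2394 items, the 6 windows and all autosomal 1 Mb bins). Of those items, 0.0835% were called higher and 0.0418% lower. The higher ones were the Igh window and the 1 Mb bin that starts at 115 Mb inside it. Igh ranked second of the 2394 items by mean, behind that bin, at 0.36. The call was lost, with the mean at 0.27, under normexp background correction (adjusted p = 0.10), with the mean at 0.24, without tumour 2 (adjusted p = 0.12), and with the mean at 0.26 without tumour 4 (adjusted p = 0.0503).

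The rest of chromosome 12 differed between the tumours. It lay at -0.30, -0.24, -0.08 and -0.02 in tumours 1 to 4 on the scale centred on the autosomal median. On that scale the Igh window was at -0.03, 0.03, 0.16 and 0.17. The window therefore lay near the autosomal level in tumours 1 and 2, whose chromosome 12 was low, and above it in tumours 3 and 4. Measured against the autosomal median alone, the mean was 0.08 and limma gave an adjusted p of 0.43. Against 2 Mb on each side of the window it was 0.23 (adjusted p = 0.027).

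**Figure D1:**
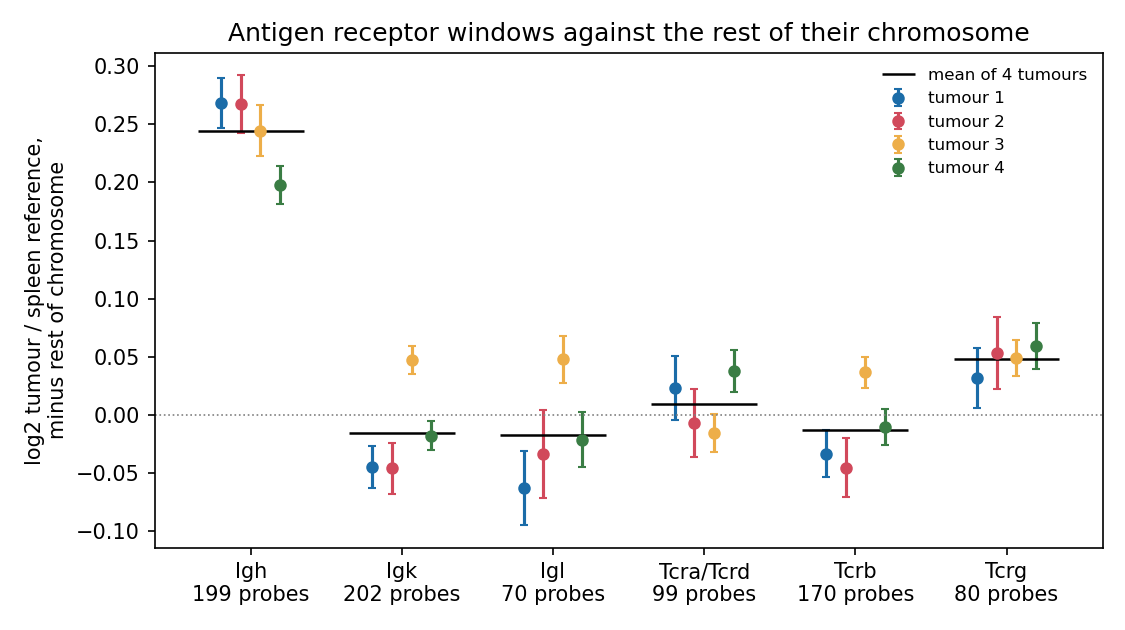
Relative log2 ratio of each receptor window (vertical axis, tumour over spleen reference minus the rest of the chromosome) in each of 4 tumours, with SE over probes as error bars and a black line for the mean of the tumours. Igh lay between 0.20 and 0.27 in the 4 tumours, while the highest value of the other 5 windows was 0.06.

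The other 5 windows lay near their chromosomes' level. Igk was at -0.05, -0.05, 0.05 and -0.02 in tumours 1 to 4, with a mean of -0.02 ± 0.04 (SD, n = 4; limma SE 0.02, adjusted p = 0.74). Igl, at -0.06, -0.03, 0.05 and -0.02, had a mean of -0.02 ± 0.05 (limma SE 0.02, adjusted p = 0.72). Both light chain windows were above 0 in tumour 3 only. For Tcra/Tcrd the values were 0.02, -0.01, -0.02 and 0.04, and the mean 0.01 ± 0.03 (limma SE 0.02, adjusted p = 0.79). Tcrb was at -0.03, -0.05, 0.04 and -0.01, with a mean of -0.01 ± 0.04 (limma SE 0.02, adjusted p = 0.75). Tcrg was above 0 in all 4 tumours, at 0.03, 0.05, 0.05 and 0.06, with a mean of 0.05 ± 0.01 (limma SE 0.01). It did not pass the test (adjusted p = 0.39, unadjusted p = 0.016 by limma). In Tcrg the 27 probes of the low-coordinate flank, most of them in Amph, were at 0.10, 0.16, 0.03 and 0.14, and the 13 probes between Amph and Stard3nl, where the gene segments lie, at -0.02, -0.06, 0.08 and 0.06. The part of the Tcrg window that was above 0 in every tumour was thus the flank.

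The 3 immunoglobulin windows averaged 0.05, 0.06, 0.11 and 0.05 in tumours 1 to 4, against 0.01, 0.00026, 0.02 and 0.03 for the 3 T cell receptor windows. The difference was above 0 in 4 of 4 tumours, with a mean of 0.06 ± 0.03 (SD, n = 4). A two-sided exact sign-flip permutation test gave p = 0.125, which is the smallest value it can give with 4 tumours. Igk and Igl without Igh averaged -0.05, -0.04, 0.05 and -0.02.

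Within the Igh window the ratio was not even. From the window start to 4930427A07Rik, outside the gene segments, 36 probes were at 0.17, 0.15, -0.12 and 0.04 in tumours 1 to 4. From there to a step at 114.67 Mb, 25 probes were at 0.05, 0.04, -0.04 and 0.02. This is the end of the cluster at which RefSeq places the constant genes. In the 0.5 Mb beyond the step, 41 probes were at 0.47, 0.41, 0.51 and 0.37, a mean of 0.44 ± 0.06 (SD, n = 4) or 1.36-fold. In tumour means these 25 probes were at 0.05 or below and the 41 at 0.37 or above, but the step was placed from the same values. All window probes before the step, the flank included, were at 0.12, 0.11, -0.09 and 0.03 in tumours 1 to 4, each with its own fitted step.

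Fitting 3 levels to each tumour on its own by least squares placed the start of the raised block between the same neighbouring probes, 114664510 and 114670169, in tumours 1, 3 and 4, and 1 probe later, between 114670169 and 114676626, in tumour 2. The step was located from these values, so the levels on its sides are a description. The raised block was 1.00 Mb long in tumours 1 and 4, 1.56 Mb in tumour 2 and 1.40 Mb in tumour 3, with block levels of 0.44, 0.39, 0.46 and 0.35 in tumours 1 to 4. The fitted far end of the block differed more between tumours than its fitted start. Since the ratio declined beyond the step, a fit of levels cannot tell whether the tumours differed in a real far end.

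The 21 single probes within 120 kb of the step describe it at the finest scale. Because the step was placed from these same values, the contrast between its sides is no test of it. The last probe before it was at -0.51, -0.45, 0.06 and -0.47 in tumours 1 to 4, and the first after it, 5.66 kb farther, at 0.42, 0.15, 0.53 and 0.38. The next probe, the highest of the window, was at 0.82, 1.02, 1.27 and 0.88. All 10 probes after the step were above 0 in every tumour, and 9 were at 0.2 or more in every tumour. Of the 11 before it, 3 were above 0 in every tumour and none reached 0.2 in every tumour. Their means ran from -0.34, at the last probe before the step, to 0.31, against 0.34 to 1.00 after it. The same array name, AK136471, covers probes on both sides, so the step lies within the stretch that the array assigns to that transcript.

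**Figure D2:**
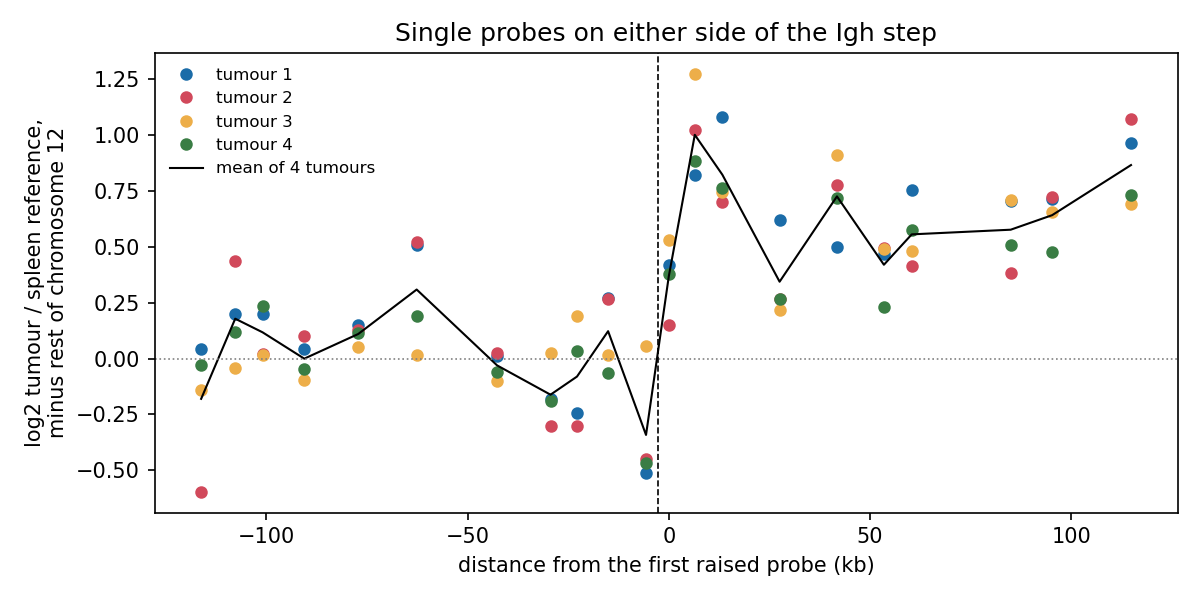
Single probes within 120 kb of the Igh step (horizontal axis, distance in kb from the first raised probe; vertical axis, relative log2 ratio), with a colour per tumour and a line for their mean. All 10 probes right of the dashed line lie above 0 in all 4 tumours. The 11 probes to its left have means from -0.34 to 0.31, and the nearest of them is the lowest. The position of the step was fitted to the same values.

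Beyond the step the ratio declined toward the V end. In successive 0.5 Mb stretches the mean of the 4 tumours was 0.44 ± 0.06, 0.41 ± 0.06, 0.27 ± 0.06 and 0.13 ± 0.01 (SD, n = 4 each). The last part of the window, from 116.8 Mb with 8 probes, was at 0.10, 0.08, 0.06 and 0.06 in tumours 1 to 4. The 14 probes between the window end and Zfp386 were at 0.03, 0.07, 0.03 and 0.02, and the 46 probes of Zfp386 and the following 0.5 Mb at -0.04, -0.05, -0.02 and -0.0014. From the step to the window end, least-squares slopes were -0.22, -0.19, -0.25 and -0.19 log2 units per Mb over 138 probes. Over the whole cluster, which includes the low stretch before the step, the slope was -0.04 ± 0.01 per Mb (SD, n = 4), below 0 in 4 of 4 tumours (two-sided exact sign-flip p = 0.125). The cluster, as far as it lies in the window, was also divided at its midpoint. The low-coordinate side, 112 probes ending at 115704911, holds the low stretch before the step and raised probes beyond it. It exceeded the Zfp386 side by 0.15, 0.13, 0.15 and 0.13 in tumours 1 to 4, a mean of 0.14 ± 0.01. The exact sign-flip p was again 0.125, the smallest possible. This difference does not mean that the constant end itself was raised.

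**Figure D3:**
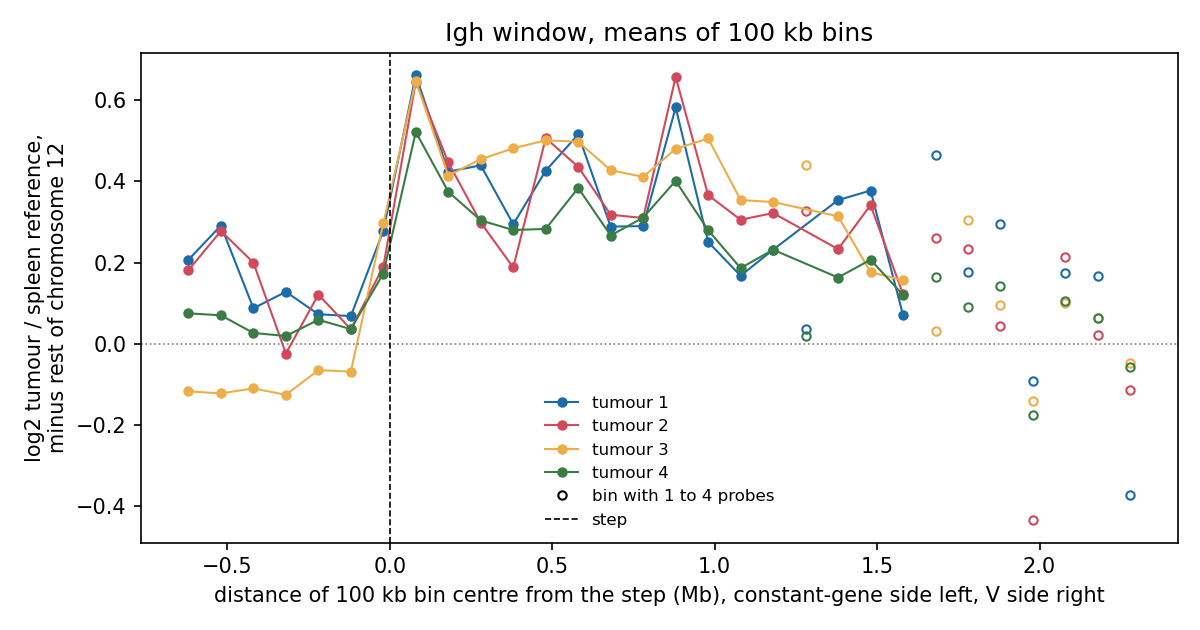
Igh window in 100 kb bins (horizontal axis, distance of the bin centre from the step in Mb; vertical axis, relative log2 ratio), with a line per tumour through bins of at least 5 probes and open circles for bins with fewer. The highest bin lies just right of the step at 0.52 to 0.66 in the 4 tumours, and the lines come down to 0.07 to 0.16 in the last bin with at least 5 probes.

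Of the 90 bins of 100 kb with at least 5 probes in the 6 windows, 15 passed the test (limma, adjusted p under 0.05) and were higher, and all 15 were in Igh, out of its 22 bins. The same test called 0.427% of all 15698 autosomal bins higher. No bin of the windows was called lower, against 1.09% of all bins; 6 of the 90 (6.67%) were below 0 with an unadjusted p under 0.05, as were 13% of all bins. Leaving out tumours 1, 2, 3 or 4 gave 11, 7, 20 and 6 Igh bins called higher, while 0.102%, 0.0637%, 21.2% and 0.0573% of all bins were called higher in the same fits. A relative log2 ratio of at least 0.2 in each of the 4 tumours was reached by 14 autosomal bins (0.0892%), of which 10 were in Igh. By mean, 13 of the 20 highest autosomal bins were Igh bins. The median bin mean was 0.28 in Igh and between -0.02 and 0.02 in the other 5 windows, against 0.0045 over all autosomal bins.

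The highest Igh bin, at 114.7 Mb, held 7 probes. It was at 0.66, 0.65, 0.65 and 0.52 in tumours 1 to 4, a mean of 0.62 ± 0.07 (SD, n = 4), or 1.54-fold, with an adjusted p of 0.00012 by limma, and it ranked second of all autosomal bins. A further local maximum lay at 115.5 Mb, at 0.58, 0.66, 0.48 and 0.40, with a mean of 0.53. Between them the bin at 115.0 Mb was at 0.29, 0.19, 0.48 and 0.28. In that bin tumour 3 was the highest and tumour 2 the lowest. The lowest tested bin, at 114.3 Mb before the segments, was at 0.13, -0.02, -0.13 and 0.02. Past 116.3 Mb no bin had 5 probes, so the V end of the locus rests on 13 probes there.

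Of the 199 Igh probes, 78 were called higher and none lower by limma over all 161460 autosomal probes, of which 2.47% were called higher and 4.26% lower. That count was 16, 19, 120 and 16 without tumours 1, 2, 3 or 4, and the share of all autosomal probes called higher was 0.0409%, 0.0372%, 21.5% and 0.0316%. Of the 113 probes from the step to 1.5 Mb beyond it, 98 were above 0 in all 4 tumours, 76 were called higher and 66 reached 0.2 in every tumour. The 61 probes before the step included none called higher and 6 above 0 in every tumour, and the 25 farther out included 2 called higher. The step that divides these groups was placed from the same values. Above 0 in every tumour were also 42 of 202 probes in Igk and 10 of 70 in Igl. The count was 23 of 99 in Tcra/Tcrd, 42 of 170 in Tcrb and 23 of 80 in Tcrg. Its share over all autosomal probes is not given here. The other windows had far fewer called probes: 5 higher and 6 lower of 202 in Igk, 3 and 3 of 70 in Igl, 1 and 1 of 99 in Tcra/Tcrd, 7 and 10 of 170 in Tcrb, and 2 and 3 of 80 in Tcrg. A relative ratio of 0.2 or more in every tumour was reached by 33.2% of the Igh probes and 1.13% of all autosomal probes.

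By array name, the Igh values followed position. AK136471, 26 probes across the step, was at 0.25, 0.19, 0.21 and 0.18 in tumours 1 to 4. Its 9 probes in the first 0.1 Mb after the step averaged 0.60. ENSMUST00000109714, which the array uses for 111 probes over 114.78-116.24 Mb, was at 0.34, 0.36, 0.42 and 0.28. Farther toward the V end BC088837, with 6 probes, was at 0.11, 0.20, 0.16 and 0.11, BC031703, with 2 probes, at 0.29, 0.04, 0.10 and 0.14, BC029188, with 3 probes, at 0.17, 0.21, 0.10 and 0.11, and AK007918, with 8 probes, at 0.08, 0.06, 0.04 and 0.07. All 6 names were above 0 in all 4 tumours, though AK007918 runs to 117.09 Mb, past the window end. The neighbours outside the cluster rest on few probes, and neither was above 0 in every tumour. 4930427A07Rik, with 2 probes, was at 0.21, 0.23, -0.04 and 0.09, and Zfp386, with 1 probe, at -0.04, 0.06, -0.20 and -0.08.

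The 3-level fit was made for Igh only, so a step was not searched for in Igk. Its 142 cluster probes were at -0.07, -0.06, 0.09 and -0.02 in tumours 1 to 4. Divided at the midpoint of the cluster, the constant side was at -0.06, -0.09, 0.11 and -0.03, against -0.08, -0.02, 0.07 and -0.0027 for the far V side. Their difference averaged -0.0098 ± 0.05 (SD, n = 4; two-sided exact sign-flip p = 0.75), and the slope with distance from the constant end was 0.02 ± 0.02 per Mb (exact p = 0.375). Tumour 3 was the one tumour with both sides above 0. The highest tested bin, at 67.4 Mb next to Il23r, was at 0.07, 0.12, 0.10 and 0.08, and the lowest, at 68.8 Mb, at -0.33, -0.32, 0.06 and -0.18, and neither passed the test (adjusted p = 0.093 and 0.11 by limma). Among the array names of the cluster, U55578 was at -0.15, -0.16, 0.11 and -0.03, M23626 at -0.08, -0.12, 0.03 and -0.08, and AF057536 at -0.04, -0.06, 0.11 and 0.0040. The remaining 3 named transcripts had means between -0.05 and -0.01. The flanking genes Il23r, a cytokine receptor gene, and Rpia, which encodes an enzyme of the pentose phosphate pathway, averaged -0.05 and -0.11.

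The lambda light chain genes lie between Hira and Lamp3 among other genes, and their constant, J and V segments are interspersed, so the interval was not divided. The 45 probes from the window start to Lamp3 were at -0.09, -0.05, 0.04 and -0.02 in tumours 1 to 4, against -0.01, -0.0032, 0.06 and -0.02 for the 25 probes from Lamp3 on. BC106995, the array name with most probes there, was at -0.10, 0.04, 0.09 and -0.02 over 12 probes. M94350, with 1 probe, was at 0.11, 0.23, -0.11 and 0.28. The lowest bin, at 19.4 Mb, was at -0.32, -0.27, 0.08 and -0.16 and the highest, at 19.9 Mb beyond Lamp3, at 0.16, 0.14, 0.04 and 0.06 (adjusted p = 0.13 and 0.11 by limma). Hira, a histone chaperone gene just outside the window, averaged -0.08 over 10 probes, and Lamp3 -0.08 over 4.

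In Tcra/Tcrd the contrast between parts differed between tumours. The constant side of its cluster, from the midpoint on, was at 0.06, 0.02, -0.01 and 0.09 in tumours 1 to 4, against -0.10, -0.13, -0.02 and -0.09 for the V side with its 24 probes. The difference was 0.16, 0.15, 0.0064 and 0.18, a mean of 0.12 ± 0.08 (SD, n = 4; two-sided exact sign-flip p = 0.125). It was above 0 in all 4 tumours but near 0 in tumour 3. The slope with distance from the constant end was -0.11, -0.11, 0.0026 and -0.12 per Mb (exact p = 0.25). AK131826, which the array uses for 64 probes up to 54.84 Mb, was at 0.06, 0.03, -0.01 and 0.09, and AF012157, on the V side, at -0.01, -0.06, -0.05 and 0.02. No bin passed the test; the highest, at 54.7 Mb, was at 0.14, 0.17, -0.04 and 0.12, and the lowest, at 53.1 Mb, at -0.15, -0.21, 0.01 and -0.14 (adjusted p = 0.16 and 0.11 by limma). Dad1, the gene next to the alpha constant gene, averaged -0.03 over 2 probes. Sall2, on the V side outside the window, had 1 probe at 0.78, 0.90, -0.01 and 0.24.

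At Tcrb, trypsinogen genes lie between most V segments and the D, J and constant segments. The 7 probes between Prss2 and Ephb6, which by RefSeq order hold the D, J and constant segments and 1 V segment, were below 0 in every tumour, at -0.14, -0.29, -0.05 and -0.18. The 30 probes of the main V block were at -0.01, 0.01, 0.05 and -0.02, and the 12 probes of the trypsinogen genes between them at -0.09, -0.18, 0.12 and -0.01. The D, J and constant block was thus lower than the V block by the mean difference of -0.17 ± 0.09 (SD, n = 4), below 0 in 4 of 4 tumours (two-sided exact sign-flip p = 0.125, the smallest possible). The slope with distance from the constant end was 0.14 ± 0.09 per Mb, above 0 in 4 of 4 tumours (exact p = 0.125). The transcript with most probes, AK138971 with 44, was at -0.03, -0.04, 0.08 and -0.02. The other names inside the cluster had 1 to 3 probes each: ENSMUST00000070424 averaged -0.05, 1700074P13Rik -0.18, 1810009J06Rik -0.12, 2210010C04Rik -0.13 and ENSMUST00000103278 -0.0072. Among single-probe neighbours Moxd2 averaged -0.19 and Ephb6, a receptor kinase gene, 0.24. The highest and lowest bins, in the low and high flank, averaged 0.08 and -0.10 (adjusted p = 0.20 and 0.19 by limma).

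In the Tcrg cluster single names disagreed: X04699, with 2 probes, was at 0.11, 0.01, 0.25 and 0.04 in tumours 1 to 4, and X03802, with 1 probe, at -0.40, -0.35, -0.19 and -0.20. AK040028 averaged -0.08, BC054086 0.05 and ENSMUST00000103566 0.05, with 1 or 2 probes each. Amph, the flanking gene, was at 0.11, 0.17, 0.04 and 0.15 over 24 probes, and Stard3nl, on the other side, at -0.08, -0.04, 0.08 and 0.03 over 4. The highest bin, at 19.1 Mb in Amph, averaged 0.14 and the lowest, at 19.6 Mb, -0.02 (adjusted p = 0.078 and 0.65 by limma).

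**Figure D4:**
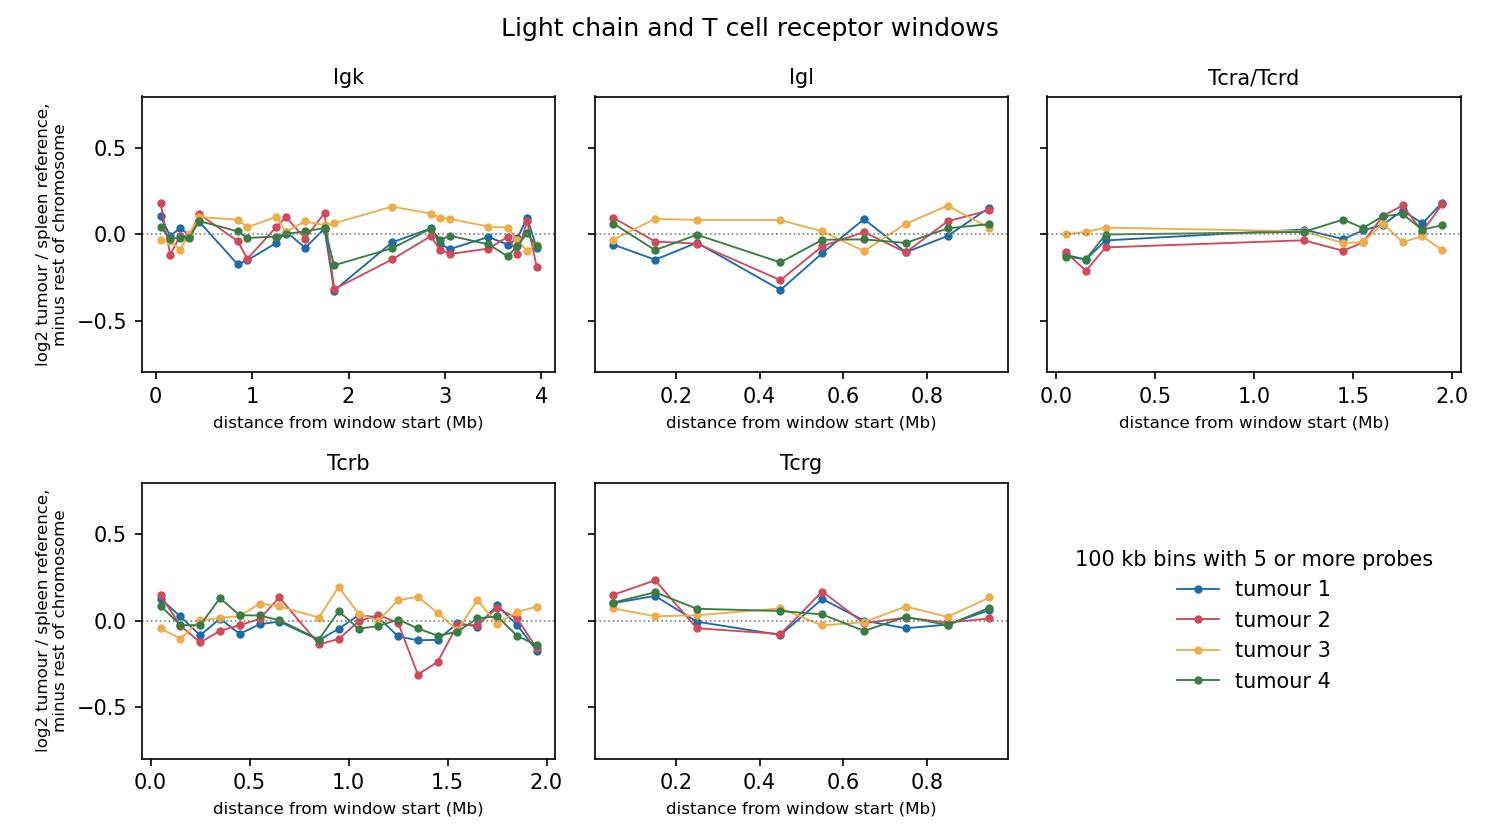
Relative log2 ratios of the 100 kb bins with at least 5 probes in the Igk, Igl, Tcra/Tcrd, Tcrb and Tcrg windows (horizontal axis, distance from the window start in Mb; a line per tumour). No bin of these windows passed the test, and the lowest bin mean was -0.19, in Igk.

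Genes that help to make or carry antigen receptors without being rearranged themselves were looked at for comparison. Of the 29 genes of the list, 19 had probes under their name. None passed the test in either direction, against 0.46% of all 20000 autosomal gene names (limma), and 3 had an unadjusted p under 0.05, as did 4745 of all names. Their median was -0.01, against 0.0058 over all names. The highest was Cd4, a T cell co-receptor gene, at 0.16, 0.22, -0.08 and 0.10 in tumours 1 to 4 (mean 0.10, adjusted p = 0.24). Without tumour 3, limma called 5 of the 19 (Cd247, Cd3g, Cd4, Lig4 and Ptcra) among 38.4% of all names. The other 10 members, Rag1 and Rag2 among them, had no probe under their names and were not analysed here.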

How the data were processed

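DNA of 4 liver tumours and of pooled reference spleen was measured on 2-colour Agilent arrays (180880 spots, mm9 positions). The deposited log10 ratios are processed red (tumour) over green (reference) signals, per the file headers, and the value table deposited by the authors holds the same log10 ratios within 0.5%. The deposited intensity columns, per the file headers, hold the signals and backgrounds of both channels. The submitters' processing notes name Agilent Feature Extraction 10.7.3.1. Ratios were turned to log2, spots of one probe averaged, outlier spots (93 to 126 per array) dropped, arrays centred on the autosomal median, and the mean of each chromosome outside the windows subtracted. Means over bins of 1 Mb and 100 kb (at least 5 probes), windows, probes and gene names (with 50 kb on each side) were tested against 0 with limma 3.58.1 in R 4.3.3 (moderated intercept, Benjamini-Hochberg, threshold 0.05), so the spread among reference samples does not enter. Parts, slopes and families were tested by exact sign flips over the tumours. The fits were tested on simulated data.

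Genes were named by a rule: up to 6 names with most probes inside each cluster, the nearest named gene on each side, the highest and lowest bin, and the extremes of the receptor gene list, of which 1 is not reported here. Printed probes are the highest or lowest of a window or lie at its ends or at the step. The windows, lists, tests and rule were chosen with earlier results of these data known, and the Igh step after its values were seen. Alternatives were another background correction, centring, filter, GC correction, comparator, summary, bin size and call rule, and each tumour left out.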

Additional observations from a re-analysis of the deposited data

Results flagged for a closer look

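In 4 of 27 sets of 4 tumour values examined, the gap between 1 tumour and the nearest other took up more of the range than Dixon's 95% critical value allows, which chance gives in about 1 of 20 sets. The sets overlap, since 2 of them describe the same Tcra/Tcrd probes. For the constant side minus the V side of Tcra/Tcrd, tumour 3 was at 0.0064, against 0.15 to 0.18 in the other tumours. The Tcra/Tcrd slope per Mb was 0.0026 in tumour 3, against -0.12 to -0.11 in the others. The highest Igh bin was at 0.52 in tumour 4, against 0.65 to 0.66 in the others. The lowest Tcrb bin was at 0.080 in tumour 3, against -0.17 to -0.14 in the others.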

How the results depend on the processing

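The Igh window stayed above 0 under all 14 alternatives, between 0.085 and 0.28, and past the threshold under 10 of them (adjusted p from 9.2e-06 to 0.43 by limma). It was 0.27 with normexp correction (adjusted p = 0.10) and 0.085 against the autosomal median alone (adjusted p = 0.43), and 0.24 to 0.26 with a tumour left out. The other windows, none past the threshold, changed sign as follows: Igk to 0.0018 with GC correction, and against the autosomal median Igk to 0.0013, Tcrb to 0.0035 and Tcrg to -0.0025; Tcra/Tcrd to -0.0069 against the median of its chromosome. Bins of the windows called higher, 15 in the reported analysis, were 23 at 50 kb and 8 at 200 kb, which were also the Igh counts, and with a tumour left out 6 to 30 (Igh alone 6 to 20). Bins called lower, none in the reported analysis, were 3 with normexp, 1 at 50 kb and 0 to 13 with a tumour left out. Probes called higher, 96 in the reported analysis, were 189 with normexp and 16 to 228 with a tumour left out (Igh alone 16 to 120), while the share of all autosomal probes called higher, 2.47% in the reported analysis, was 17.1% with normexp and 0.0316% to 21.5% with a tumour left out. Probes called lower, 23 in the reported analysis, were 116 with normexp, 13 at 0.2 in every tumour and 0 to 142 with a tumour left out. The share of all autosomal probes called lower, 4.26% in the reported analysis, rose along with them. It was 17.0% with normexp and 0.234% to 19.1% with a tumour left out. Normexp moved the Igh contrast between the sides of the cluster midpoint, 0.14 in the reported analysis, to 0.13. With a tumour left out, 0 to 5 receptor machinery genes were called. The causes were not tested. Over all autosomal bins, 67 higher and 171 lower, the counts were 1224 and 1204 with normexp, 389 and 733 at 50 kb, 12 and 18 at 200 kb, 14 and 21 at 0.2 in every tumour, and 9 to 3334 and 7 to 2936 with a tumour left out. Centring cancels in relative ratios, and the authors' value table holds the same ratios. Both alternatives are among those past the threshold for Igh, but they could hardly change the result. The slide as a random block was not run, since limma gave no correlation estimate for 4 arrays on 3 slides; tumours 1 and 4 shared one, and Igh was 0.24 without tumour 1 (adjusted p = 0.025) and 0.26 without tumour 4 (adjusted p = 0.0503). No paired analysis was possible because the tumours form 1 group. Exact tests over 4 tumours cannot go below 0.125, and the V end of Igh had few probes.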
